A study of Syntrichia ruralis with 8 samples.

Results

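Early light-inducible proteins (ELIPs) are represented on this moss cDNA array by 2 of its 768 clones. They were taken as the clones whose annotation in the scanner files names an early light-inducible protein, and are USD-274, annotated ELIPA, and USD-305, annotated elipb and written ELIPb here. Each clone was spotted 3 times per array. Of all the clones, 207 carried an informative annotation and 561 did not. The annotations give no genome position for either clone, and whether the 2 clones hybridise with each other's transcripts was not tested.

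ELIPs are nuclear-encoded proteins of the thylakoid membrane, the chloroplast membrane that carries the photosystems. They belong to the family of the light-harvesting chlorophyll a/b-binding proteins, but accumulate for a limited time under strong light and other stress rather than in steady growth. In plants they are known to bind pigments and are thought to hold free chlorophyll while the photosystems are taken apart, repaired or rebuilt. In desiccation-tolerant plants, which keep chlorophyll through drying or remake it afterwards, ELIP transcripts are known to accumulate in drying tissue.

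The moss is Tortula ruralis, also named Syntrichia ruralis, whose leafy gametophytes survive the loss of nearly all their cell water. Gametophytes held hydrated for 48 h were either dried slowly for 24 h in air of 66% relative humidity at 20 °C over saturated sodium nitrite, or dried rapidly over silica gel and then rehydrated for 2 h. Each treatment was set against hydrated gametophytes on 2-colour arrays, once in total RNA and once in polysomal RNA, the RNA recovered with ribosomes, which gave 4 comparisons of 2 arrays each. The source names call the latter samples polysomal, but their labels describe an extraction of total RNA. The source names were followed. Per the design text, the 2 arrays came from separate RNA preparations of large, pooled populations of gametophytes, and total and polysomal RNA came from separate samples. Whether the comparisons shared hydrated RNA is not stated, so comparisons set side by side may share controls. In replicate 1 the treated RNA carried the dye Cy3, and in replicate 2 it carried Cy5. The array labelled rapid-dried rehydrated polysomal replicate 2 is called slow-dried in its title, but rapid-dried and rehydrated in its source name and protocol, which were followed. Clones came from a library subtracted for desiccation transcripts, so they do not sample the genes at random. The tissue stands as labelled, since no marker list for moss cell types was drawn up. In such bulk RNA, fewer cells of a type and less RNA per cell cannot be told apart.

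The arrays differed in quality. Treated signal was well above background, here more than 2 background SD above the local background, for 82.6% to 98.6% of clones per array. Hydrated signal passed for 71.2% to 94.9% of clones on 7 arrays and for 42.4% on rapid-dried rehydrated total replicate 1. The 4 total RNA arrays come from slides 2 to 6 and the 4 polysomal arrays from slides 73 to 105, so slide range and RNA fraction cannot be told apart.

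In slow-dried total RNA both ELIP clones were brighter in the treated than in the hydrated channel. The ELIPA spots read 26513 scanner units in the treated channel against 3629 in the hydrated channel on replicate 1, and 9143 against 2548 on replicate 2. The ELIPb spots read 4499 against 901 on replicate 1 and 2709 against 845 on replicate 2. The hydrated channel of replicate 2 was not well above background for either clone, so on that array the denominator of both ratios is poorly measured. After plain subtraction of the background, treated signal was 8.18 and 6.95 times hydrated signal for ELIPA, and 5.25 and 7.74 times for ELIPb.

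In rapid-dried rehydrated total RNA the treated channel was again the brighter, at lower signals. ELIPA read 4135 against 628 on replicate 1 and 7284 against 2244 on replicate 2, with the hydrated channel not well above background on replicate 1. ELIPb read 857 against 196 and 1248 against 847, and its hydrated channel was not well above background on either array. No fold is therefore given for ELIPb in this comparison, since its treated level did not exceed the lowest level counted as well above background in the hydrated channel.

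In polysomal RNA both channels were well above background on all 4 arrays for both clones. In slow-dried polysomal RNA, ELIPA read 22721 against 9862 and 33553 against 6126, and ELIPb read 2332 against 1144 and 2966 against 1525. In rapid-dried rehydrated polysomal RNA the channels changed order between dyes for ELIPA, at 8947 against 15189 on replicate 1 and 15108 against 9911 on replicate 2. There ELIPb read 1345 against 2002 and 2129 against 2363. With the background subtracted the order changed for both clones, with ratios of 0.56 and 1.61 for ELIPA and 0.39 and 1.19 for ELIPb. These are signals before any balancing of the dyes, and no spot of either clone was saturated.

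**Figure D1:**
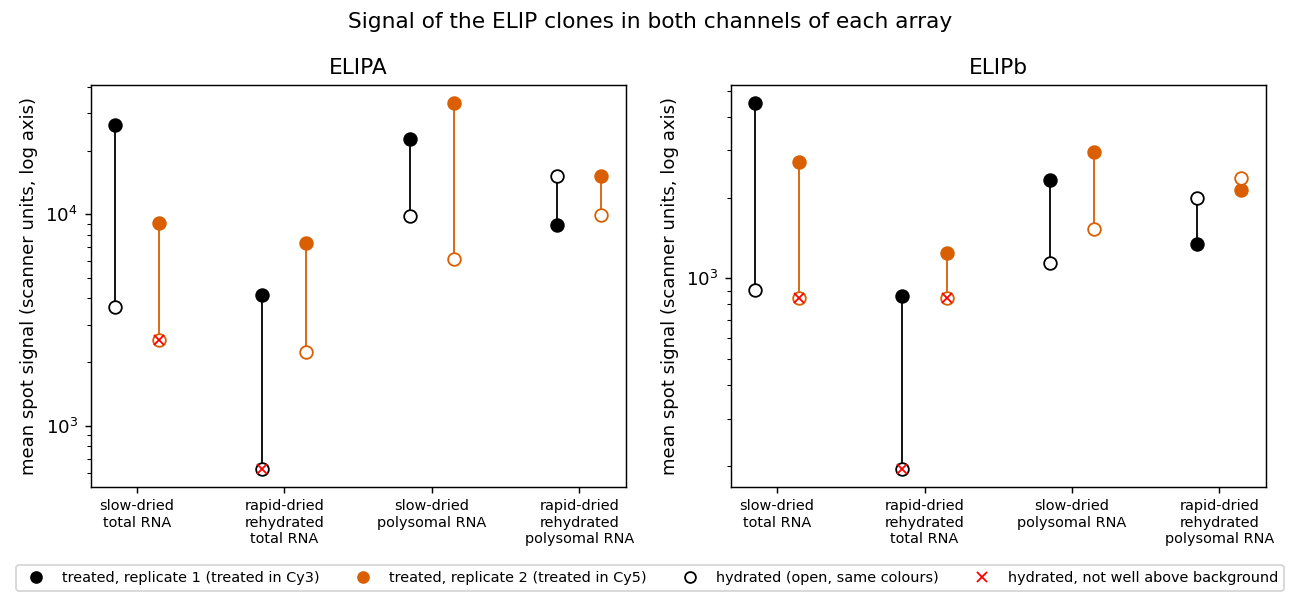
Mean signal of the 3 spots of ELIPA (left) and ELIPb (right) in scanner units on a log axis, for each of the 8 arrays; filled points are treated RNA, open points hydrated RNA, and a line joins the channels of 1 array. The treated point lies above the hydrated point on all 6 arrays of the first 3 comparisons for both clones, and red crosses mark the hydrated signals that were not well above background; the panels have different axis ranges.

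Ratios of treated to hydrated signal were next put on a log2 scale and balanced within each array by loess, which sets the typical clone at 0. A value above 0 on this scale is thus a rise relative to most other clones of the array. In slow-dried total RNA the ELIPA ratio was 1.35 on replicate 1 and 1.56 on replicate 2, and its 3 spots lay between 1.27 and 1.45 on the first array. The ELIPb ratio was 1.09 on replicate 1 and 2.95 on replicate 2, with single spots from 0.57 to 1.64 and from 2.44 to 3.41. ELIPA was thus nearly level between the arrays, whereas ELIPb was much higher on the array whose hydrated channel was not well above background. The 2 arrays differed by 1.86 for ELIPb, and only 1.17% of clones differed by more.

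Both ELIP clones rose in slow-dried total RNA. The fitted log2 ratio of ELIPA was 1.46 ± 0.15 (SE, n = 2 arrays; 95% interval 1.09 to 1.83), a 2.75-fold rise with an adjusted p of 0.000419. That of ELIPb was 2.02 ± 0.33 (interval 1.22 to 2.83), a 4.06-fold rise with an adjusted p of 0.00225. Both of the 2 clones were called higher, against 32.4% of all clones in this comparison and direction. By size ELIPb ranked 19 and ELIPA 61 from the highest of 768 clones, and 3 and 7 among the annotated clones. Leaving out replicate 2 of this comparison lowered ELIPb to 1.13, and leaving out replicate 1 raised it to 2.91, with the call kept in both cases. In the authors' deposited table, fitted the same way, ELIPb was 3.40 with an adjusted p of 0.0520 and was not called, while ELIPA was, as were 62.1% of clones.

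In rapid-dried rehydrated total RNA the test passed for ELIPA and not for ELIPb. ELIPA lay at 0.80 and 0.43 on the 2 arrays, with a fitted ratio of 0.61 ± 0.15 (interval 0.24 to 0.98; adjusted p = 0.0142). This 1.53-fold rise placed ELIPA at rank 206 of 768, in a comparison where 29.4% of clones were called higher. Without replicate 1 the value was 0.38 with an adjusted p of 0.197, and with the total RNA arrays alone it was 0.61 with an adjusted p of 0.0711, so the call rests on that array and on the spread shared with the polysomal arrays. ELIPb lay at 0.16 and 0.083, and its fitted 0.12 ± 0.33 (interval -0.68 to 0.93) was not called (adjusted p = 0.778).

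In slow-dried polysomal RNA the arrays agreed closely for both clones, and again ELIPA alone passed. ELIPA lay at 0.53 and 0.58, and its fitted 0.56 ± 0.15 (interval 0.18 to 0.93) was a 1.47-fold rise with an adjusted p of 0.0257, where 21% of all clones were called higher. This call was lost when either slow-dried polysomal array was left out (adjusted p = 0.169 and 0.251) and when either rapid-dried rehydrated polysomal array was (adjusted p = 0.0672). ELIPb lay at 0.34 and 0.36, with a fitted value of 0.35 ± 0.33 (interval -0.46 to 1.15; adjusted p = 0.436). Its error is 1 estimate shared by all comparisons, into which the gap between its slow-dried total arrays enters. With the polysomal arrays fitted alone, which leaves 1 residual degree of freedom per clone, ELIPb was called higher at the same 0.35 (adjusted p = 0.0141), as were 34.6% of clones. That fit gave both ELIP clones the same SE of 0.13, an error pooled over clones. Its p-values therefore do not rest on the spread of each clone itself.

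In rapid-dried rehydrated polysomal RNA neither clone was called. ELIPA lay at -0.17 and -0.14, with a fitted value of -0.15 ± 0.15 (interval -0.52 to 0.22; adjusted p = 0.473). ELIPb lay at -0.67 and -0.37, with a fitted value of -0.52 ± 0.33 (interval -1.33 to 0.29; adjusted p = 0.270), which is rank 619 of 768. Both arrays of both clones were below the typical clone here, in a comparison where 19% of clones were called higher and 17.6% lower. The polysomal arrays alone gave the same -0.52 for ELIPb with an adjusted p of 0.000223, as 1 of the 31.8% of clones then called lower. This p again rests on the error pooled over clones. ELIPb was also called lower when either slow-dried total array was left out, with an SE of 0.13 and an adjusted p of 0.0292.

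**Figure D2:**
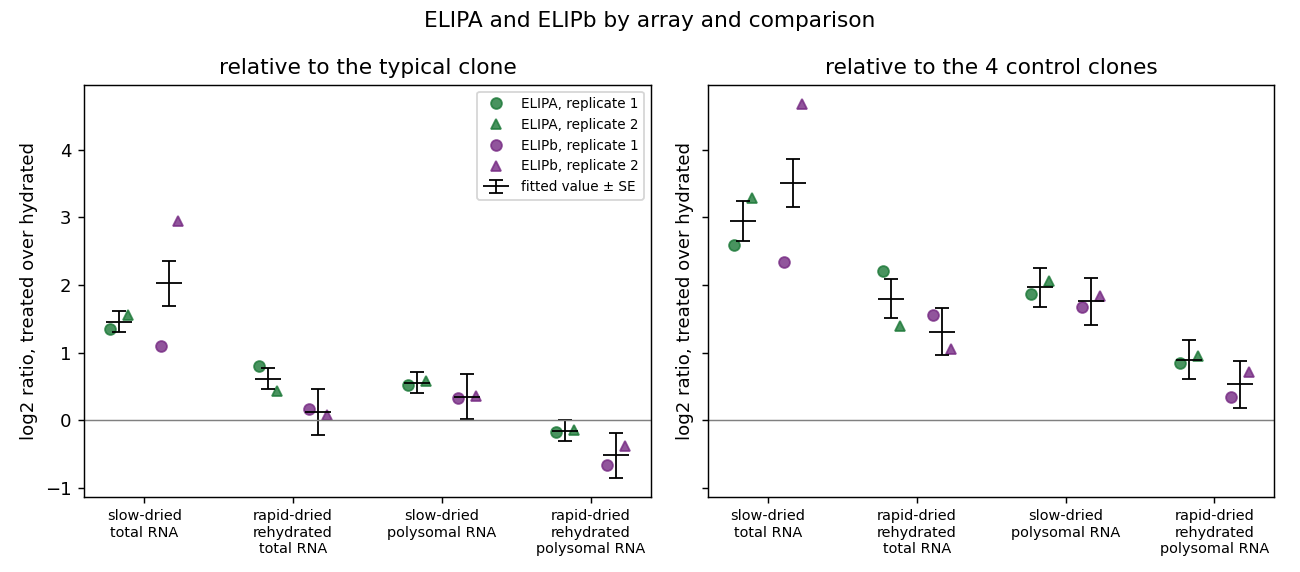
Treated over hydrated log2 ratio of ELIPA (green) and ELIPb (purple) on each array of the 4 comparisons, with the fitted value ± SE in black; on the left 0 is the typical clone and on the right 0 is the mean of the 4 ribosomal protein control clones. All points move up on the right, from fitted values of -0.52 to 2.02 to values of 0.53 to 3.51, and slow-dried total RNA is the highest comparison for both clones on both scales.

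The reference point matters for these values. The labels describe ribosomal protein clones as unaffected by the treatments, and the files hold 4 of them (L17, S14, S16 and S3). The design text lists L23 and L15 in place of L17 and S3, so the identity of some control clones is uncertain. All 4 were called lower than the typical clone in all 4 comparisons, and the median clone lay 1.04 to 1.53 log2 units above their mean. The direction of an ELIP ratio near 0 therefore depends on which clones are taken as fixed.

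Set against the 4 control clones, the ELIP ratios were positive in every comparison. On this control scale ELIPA was 2.95 ± 0.29 after slow drying (7.70-fold) and 1.80 after rapid drying and rehydration (3.48-fold) in total RNA. In polysomal RNA it was 1.96 (3.90-fold) and 0.90 (1.86-fold), and it was called in all 4 comparisons. ELIPb was 3.51 ± 0.35 (11.4-fold) in slow-dried total RNA and 1.76 (3.38-fold) in slow-dried polysomal RNA, both called. Its fitted 1.31 in rapid-dried rehydrated total RNA also passed the test, but is no measured rise, since the hydrated channel was not well above background on either array. After rapid drying and rehydration its polysomal value was 0.53 with an adjusted p of 0.167. Most clones were called higher on this scale, namely 77.7% and 72.5% in slow-dried and rapid-dried rehydrated total RNA and 81.6% and 75.5% in the corresponding polysomal RNA. Calls of the ELIP clones on this scale are thus nothing particular to them. In the authors' deposited table, whose scale appears to rest on the same control clones, the ratios of ELIPA ran from 1.80 to 12.7 over the 8 arrays. Those of ELIPb ran from 1.45 to 58.9. The 58.9 belongs to rapid-dried rehydrated total replicate 1, where the hydrated signal was not well above background, and the other array of that comparison gave 1.90.

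**Figure D3:**
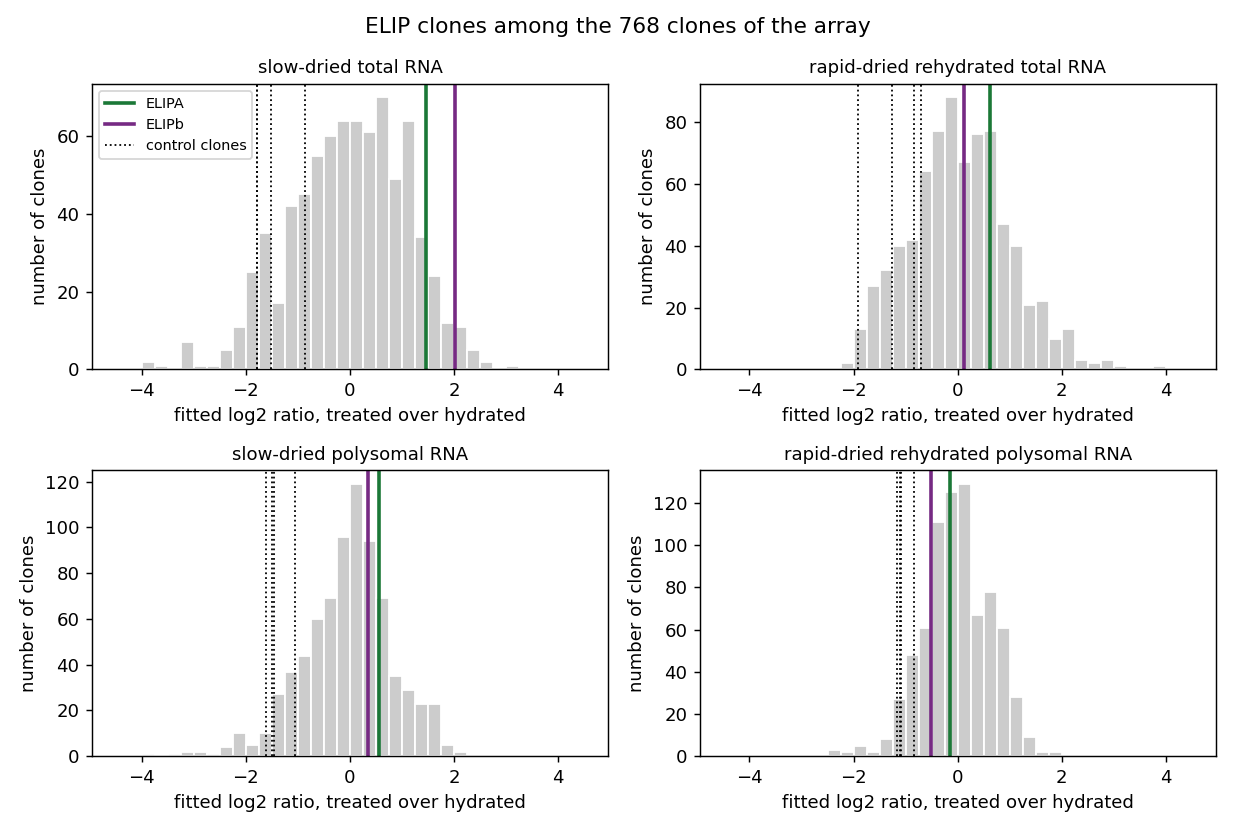
Number of clones by fitted log2 ratio of treated over hydrated signal in each comparison (grey bars, 768 clones, typical clone at 0), with ELIPA in green, ELIPb in purple and the 4 control clones as dotted lines. In slow-dried total RNA both ELIP lines stand to the right of most clones, at 1.46 and 2.02. In the other panels they lie between -0.52 and 0.61, and the control clones lie to the left in all 4.

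The difference between the treatments was tested within the same fit. The treatments differ both in drying rate and in rehydration before sampling, so these cannot be told apart in it. In total RNA slow drying exceeded rapid drying with rehydration by 0.85 ± 0.22 for ELIPA (interval 0.32 to 1.37; adjusted p = 0.0441) and by 1.90 ± 0.47 for ELIPb (interval 0.76 to 3.04; adjusted p = 0.0410). Only 6.38% of clones were called higher in slow-dried than in rapid-dried rehydrated total RNA, and both ELIP clones were among them. The ELIPb difference rests on hydrated signals that were not well above background on 3 of the 4 total RNA arrays, among them both rapid-dried rehydrated ones, so its size is poorly measured. For ELIPA the hydrated signal was not well above background on slow-dried total replicate 2 and rapid-dried rehydrated total replicate 1. On the control scale the differences were 1.15 for ELIPA (adjusted p = 0.0706) and 2.20 for ELIPb (adjusted p = 0.00638), where 7.29% of clones were called higher. In the authors' deposited table the difference for ELIPb was 0.0016. Leaving out single arrays gave 0.61 to 1.08 for ELIPA and 1.01 to 2.79 for ELIPb, and the calls were lost in 7 and 6 of 8 cases.

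In polysomal RNA the same difference was 0.71 for ELIPA (interval 0.18 to 1.23; adjusted p = 0.133) and 0.87 for ELIPb (interval -0.27 to 2.01; adjusted p = 0.308). Slow-dried exceeded rapid-dried rehydrated polysomal RNA on every array for both clones, but neither passed the test, and only 0.26% of clones were called higher. With the polysomal arrays fitted alone both passed at the same values (adjusted p = 0.000885 and 4.0e-05), where 21.7% of clones were called higher. In that fit both clones had the same SE of 0.19, pooled over clones. These p-values thus follow the size of the difference, not the spread of each clone.

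The treated-over-hydrated ratio was lower in polysomal than in total RNA. After slow drying the difference was -0.90 for ELIPA (interval -1.43 to -0.38; adjusted p = 0.0251) and -1.67 for ELIPb (interval -2.81 to -0.54; adjusted p = 0.0407), where 15.5% of all clones were called lower. After rapid drying and rehydration it was -0.77 for ELIPA (interval -1.29 to -0.24; adjusted p = 0.0413), where again 15.5% were called lower, and -0.64 for ELIPb (interval -1.78 to 0.50; adjusted p = 0.338). On the control scale ELIPA fell short in both, at -0.98 and -0.90 (adjusted p = 0.100 and 0.142), while ELIPb after slow drying still passed at -1.75 (adjusted p = 0.0134), where 9.77% were called lower. Leaving out single arrays lost each of the 3 calls in 5 of 8 cases, while the ELIPb value of -0.64 passed without either slow-dried total array (adjusted p = 0.0497). The values after slow drying use slow-dried total replicate 2, where the hydrated signal of both clones was not well above background. Without that array the ELIPb value was -0.79. For ELIPA the hydrated signal was also not well above background on rapid-dried rehydrated total replicate 1, and for ELIPb on both arrays of that comparison. Because the fractions came from separate samples and separate slide ranges, RNA fraction, sample and slide cannot be told apart in these differences.

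Each clone's 4 values can be put in order. For ELIPA the order was slow-dried total (1.46), rapid-dried rehydrated total (0.61), slow-dried polysomal (0.56) and rapid-dried rehydrated polysomal RNA (-0.15). The step down from slow-dried total RNA passed the test. The middle values differed by -0.058 (interval -0.58 to 0.47), and the last step did not pass. For ELIPb the middle values were in the opposite order and differed by 0.23 (interval -0.91 to 1.37). Slow-dried total RNA stood above its neighbour for both clones, and no other step passed in this fit.

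The 2 clones were compared with each other as the difference of their log2 ratios on each array. This leaves out a shift common to all clones of an array. It does not leave out the loess balance, which varies with brightness, and ELIPA was the brighter clone on every array. ELIPb minus ELIPA was -0.26 and 1.39 in slow-dried total RNA, -0.64 and -0.35 in rapid-dried rehydrated total RNA, -0.19 and -0.22 in slow-dried polysomal RNA and -0.50 and -0.23 in rapid-dried rehydrated polysomal RNA. The ratio of ELIPb was therefore below that of ELIPA on 7 of 8 arrays, and above it on slow-dried total replicate 2. The mean difference of -0.13 did not pass an exact two-sided sign-flip permutation test (p = 0.648, adjusted over 3 tests 0.857). Without slow-dried total replicate 2, the one array above 0, the mean was -0.34 and the adjusted p 0.0469, while leaving out any other array gave an adjusted p of 0.75 or more. With the only positive value removed, that p is the smallest which the remaining arrays can give, so it is not read as a difference. With median centring in place of loess, the mean over all 8 arrays was -0.49 and did not pass the same test (adjusted p = 0.164).

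Between treatments, ELIPb minus ELIPA averaged 0.18 on the 4 slow-dried and -0.43 on the 4 rapid-dried rehydrated arrays. This gap of 0.61 did not pass an exact two-sided permutation test (p = 0.0571, adjusted 0.171; the smallest p the design allows is 0.0286). In the authors' deposited table the gap was -0.61, with rapid-dried rehydrated total replicate 1 at 2.98. Between fractions the gap was -0.32, with means of -0.29 in polysomal and 0.037 in total RNA (exact permutation p = 0.857, adjusted 0.857).

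**Figure D4:**
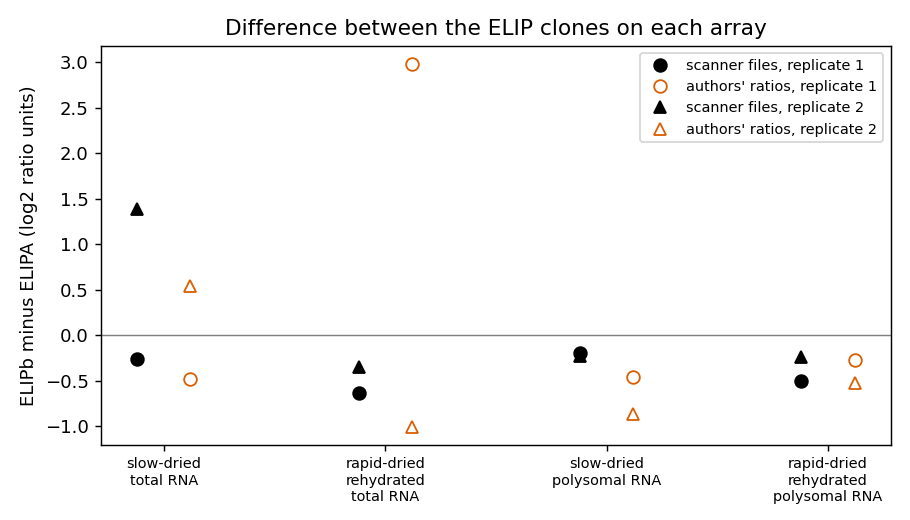
Log2 ratio of ELIPb minus that of ELIPA on each of the 8 arrays, from the scanner files (black) and from the authors' deposited ratios (orange, open), with replicate 1 as circles and replicate 2 as triangles. The scanner values lie between -0.64 and -0.19 on 7 arrays and at 1.39 on slow-dried total replicate 2, while the deposited ratios put rapid-dried rehydrated total replicate 1 at 2.98.

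Other chloroplast proteins gave the surroundings of the ELIPs. Of 7 clones annotated for photosynthesis or the chloroplast, ELIPs left out, 2 were called higher and 3 lower in slow-dried total RNA, where 32.4% and 30.6% of all clones were. Their median log2 ratio was -0.55 against 0.047 over all clones. The 3 lower clones were a chloroplast carbonic anhydrase, an enzyme of carbon dioxide supply (-3.11), an antenna protein that binds chlorophyll a/b (-3.09) and the plastocyanin docking subunit of photosystem I (-3.00). The antenna protein, a relative of the ELIPs, thus had a ratio of the opposite sign to theirs, and it was also below 0 on the control scale (-1.60). Higher were Toc125, a receptor for import of proteins into the chloroplast, by at least 4.47-fold (adjusted p = 0.00184) over a hydrated level that was not well above background, and a chloroplast gamma-glutamylcysteine synthase (0.61), which makes the precursor of glutathione.

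In rapid-dried rehydrated total RNA 1 of these 7 was called higher and 4 lower (median -0.72), where 29.4% and 26.8% of all clones were. In polysomal RNA 0 were called higher, and 5 were lower after slow drying (median -1.42) and 4 after rapid drying and rehydration (median -1.69), where 21% and 19% of all clones were called higher and 24.5% and 17.6% lower. On the control scale 3 or 4 of the 7 were called higher in each comparison, against 72.5% to 81.6% of all clones. The carbonic anhydrase, the antenna protein and the photosystem subunit were called lower on this scale in both fractions after slow drying. Lil3, another member of the light-harvesting-like family, was looked up by its annotation after values were seen. Lil3 lay at -0.71 and -1.65 in total RNA and at -1.02 and -0.69 in polysomal RNA, with slow drying first, and was called lower in all 4 comparisons. On the control scale Lil3 was 0.78 in slow-dried total RNA (adjusted p = 0.0141), so its direction there depends on the scale.

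A list of 9 clones covered the removal of reactive oxygen and any annotation with the word glutathione. Reactive oxygen can form when chlorophyll absorbs light that cannot be used. Of the 9, 4 were called higher and 3 lower in slow-dried total RNA, where 32.4% and 30.6% of all clones were. The median of the 9 was 0.60. These counts include lactoylglutathione lyases, which are glyoxalase enzymes, namely USD-102 (1.12, called higher) and the glyoxalase I USD-190 (called lower). Catalase, which breaks down hydrogen peroxide, was the highest of the 9 at 2.14, next to the 2.02 of ELIPb. The likeness was limited to this comparison. Catalase was also called higher in rapid-dried rehydrated total RNA (at least 4.63-fold), slow-dried polysomal (1.21) and rapid-dried rehydrated polysomal RNA (0.69). ELIPb was called in none of these (fitted values 0.12, 0.35 and -0.52). Microsomal glutathione S-transferase 3 (-3.09), a glyoxalase I (-2.14) and a thioredoxin H (-2.06) were the lowest. The stromal ascorbate peroxidase, which is in both lists, lay at -0.55 and was not called (adjusted p = 0.0568). Called higher and lower were 2 and 2 of the 9 in rapid-dried rehydrated total RNA, against 29.4% and 26.8% of all clones. They were 1 and 3 in slow-dried polysomal RNA, against 21% and 24.5%, and 1 and 3 in rapid-dried rehydrated polysomal RNA, against 19% and 17.6%. The medians of these comparisons ran from -0.068 to 0.013. On the control scale 6 or 7 of the 9 were called higher in each comparison, near the 72.5% to 81.6% of all clones.

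Desiccation proteins, the rehydrins, dehydrins and late embryogenesis abundant (LEA) proteins of the array, were called near the rate of all clones in total RNA. Of 13 such clones 5 were called higher and 4 lower in slow-dried total RNA, with a median of 0.14, where 32.4% and 30.6% of all clones were. The dehydrin LTI30/XERO2 at 1.49 was close to ELIPA at 1.46, while the rehydrins Tr-416 (-3.06), Tr-217 (-1.74), Tr-421 (-1.70) and Tr-418 (-0.45) were called lower. Called higher were rehydrin Tr-288, on the clones USD-231 (1.39) and Tr-288 (0.998), and the LEA clones USD-161 (1.31) and USD-165 (0.79). On the control scale Tr-217 (-0.25) and Tr-421 (-0.21) were not called, and Tr-416 (-1.57) was called lower. Tr-217 was called higher in slow-dried polysomal RNA (1.17). In rapid-dried rehydrated total RNA 4 were called higher and 4 lower, against 29.4% and 26.8% of all clones. In slow-dried polysomal RNA 3 and 5 were, against 21% and 24.5%, and in rapid-dried rehydrated polysomal RNA 1 and 2, against 19% and 17.6%. On the control scale 9 or 10 of the 13 were called higher in each comparison, against 72.5% to 81.6% of all clones.

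Clones whose ratios followed the ELIPs over the 8 arrays were ranked by Pearson correlation, as a description. Correlation compares the pattern over the arrays and not the level. For ELIPA the closest annotated clones by r were a gamma-glutamylcysteine synthetase (r = 0.95), clb1 (0.95), bdn1 (0.92), a hypothetical protein (0.91) and phospholipase D alpha, which releases phosphatidic acid from membrane lipids (0.91). By mean distance from ELIPA they ranked 287, 233, 8, 383 and 393 of 767 in that order, so only bdn1 was also close in level. The closest clone of all was USD-163, which has no annotation (r = 0.97), and which also had the smallest mean distance from ELIPA, 0.119 log2 units. On the arrays, in the order of the comparisons above, USD-163 lay at 1.08 and 1.71, 0.60 and 0.43, 0.48 and 0.65, and -0.30 and -0.057. Unlike ELIPA, USD-163 was well above background in both channels of every array. The next unannotated clone was USD-176 (r = 0.96). The gamma-glutamylcysteine synthetase clone was well above background in both channels on 3 of 8 arrays and in neither on 2, so its likeness rests on dim signals.

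For ELIPb the closest annotated clones were the same gamma-glutamylcysteine synthetase (r = 0.96), ATZW10 (0.95), a dehydroascorbate reductase, which recycles ascorbate (0.92), clb1 (0.90) and a PQ-loop protein (0.89). By mean distance from ELIPb they ranked 76, 57, 7, 52 and 16 of 767 in that order. Only 1 clone per annotation was listed. USD-202, also annotated dehydroascorbate reductase, lay at 0.54 in rapid-dried rehydrated total and 0.012 in slow-dried polysomal RNA. The listed clone, USD-154, lay there at -0.068 and 0.51. Without annotation, USD-55 (0.97) and USD-193 (0.97) were the closest. Without slow-dried total replicate 2, r fell to 0.75 for ATZW10, 0.77 for the dehydroascorbate reductase and 0.48 for the PQ-loop protein, the last well above background in both channels on only 2 of 8 arrays. It was then 0.84 for clb1, 0.85 for USD-55 and 0.84 for USD-193, and 0.97 for the gamma-glutamylcysteine synthetase. ELIPA and ELIPb correlated with each other at r = 0.89, and at 0.96 without that array. ELIPb ranked 25 of 767 clones by likeness to ELIPA, and 22 clones exceeded r = 0.9. The 8 points are 4 comparisons of 2 arrays with common slides and dyes, so such values describe these arrays alone.

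**Figure D5:**
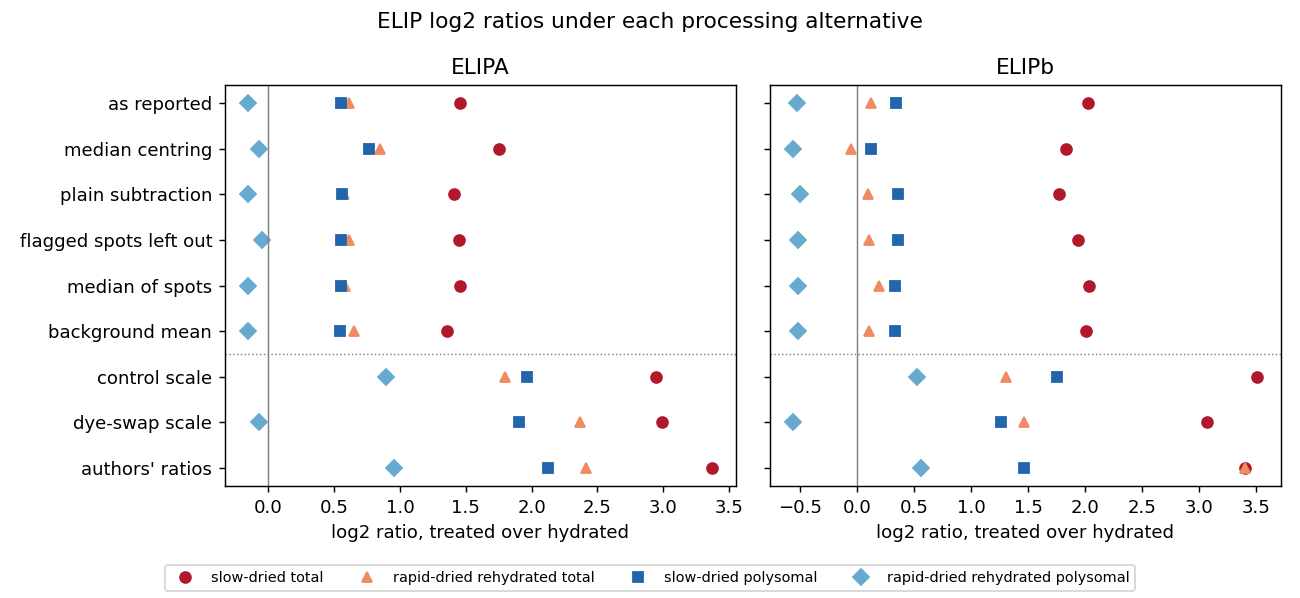
Fitted log2 ratio, treated over hydrated, of ELIPA (left) and ELIPb (right) in the 4 comparisons under 9 ways of processing; above the dotted line the typical clone is near 0, below it the scale comes from the control clones, from the dye swap or from the authors. Slow-dried total RNA (red circles) lies highest in every row for both clones, level with rapid-dried rehydrated total RNA only for ELIPb in the authors' ratios, and rapid-dried rehydrated polysomal RNA (light blue) lies lowest in every row.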

How the data were processed

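Per the file headers, the deposited scanner files give the intensity of each spot and of its local background per channel, not normalized. Spot flags of 0 to 3 are deposited beside them, and what they mean and which scanner was used is not stated in the labels or headers. A separate table from the authors holds a treated-over-hydrated ratio for each clone and array. In it the 4 control clones lay mostly near a log2 ratio of 0, but S16 was at 1.09 in slow-dried total RNA. That these clones set its scale is inferred and was not tested. Background medians were corrected for by normexp (offset 50). Log2 ratios were balanced by global loess (span 0.3, 4 iterations), and the 3 spots averaged. One limma fit (3.58.1, R 4.3.3) over all 8 arrays had 4 group coefficients and a dye term, with 3 residual and 6.41 total degrees of freedom. Two-sided p-values were adjusted (Benjamini-Hochberg) over 768 clones, with calls under 0.05. The fit was tested on simulated data. The p-values reflect only the spread between these RNA preparations, with the error of each clone drawn in part from that of all clones. The number of arrays limits the precision. In the fit of the polysomal arrays alone the error was fully pooled over clones. "At least" folds set the treated mean against the lowest level counted as well above background in the hydrated channel, or the clone's own level if higher.

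The named clones were the ELIPs, the control clones, up to 4 per list with the largest absolute ratio in slow-dried total RNA, and the 5 annotated and 2 unannotated clones most like each ELIP; a few others are named beside their counts. Members and lists were chosen with earlier results of these data known. Alternatives covered the scale, background, flags, spots, detection, dye term, fraction and single arrays.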

Additional observations from a re-analysis of the deposited data

Results flagged for a closer look

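Differences between comparisons that passed the test itself are given here as values. Slow-dried minus rapid-dried rehydrated total RNA was 1.90 log2 units for ELIPb and 0.85 for ELIPA. The hydrated signal of ELIPb was not well above background on 3 of the 4 arrays behind its value, so the size is poorly measured. Polysomal minus total RNA after slow drying was -1.67 for ELIPb and -0.90 for ELIPA, and after rapid drying and rehydration it was -0.77 for ELIPA. On slow-dried total replicate 2 the hydrated signal of both clones was not well above background. That of ELIPA was also not on rapid-dried rehydrated total replicate 1, so the sizes of all these differences are limited. With 2 arrays per group, no search for outlying arrays could be made within a group.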

How the results depend on the processing

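Under all alternatives run, ELIPA in slow-dried total RNA kept its direction and its call, and so did ELIPb there except in the authors' table. The other results changed as follows, as log2 values. The cause was not tested unless named. Below, after rehydration stands for after rapid drying and rehydration. The control scale, which adds the same shift to all clones of an array, gave 0.90 for ELIPA and 0.53 for ELIPb in rapid-dried rehydrated polysomal RNA, with the sign turned. It brought ELIPb past the threshold in rapid-dried rehydrated total (1.31) and slow-dried polysomal RNA (1.76). For ELIPA it lost the calls for slow-dried minus rapid-dried rehydrated total RNA (1.15) and for polysomal minus total RNA after slow drying (-0.98) and after rehydration (-0.90), and it turned slow-dried polysomal minus rapid-dried rehydrated total RNA to 0.17. Median centring turned ELIPb in rapid-dried rehydrated total RNA to -0.050. It also moved the mean of ELIPb minus ELIPA over all arrays from -0.13 to -0.49, which did not pass either. The dye-swap scale lost ELIPA (0.62) and ELIPb (1.60) for the treatment difference in total RNA and ELIPA (-1.08) and ELIPb (-1.80) for polysomal minus total RNA after slow drying. It brought ELIPb past the threshold in rapid-dried rehydrated total RNA (1.47) and for polysomal minus total RNA after rehydration (-2.02), and turned its slow-dried polysomal minus rapid-dried rehydrated total value to -0.20.

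In the authors' deposited table ELIPA was 0.96 in rapid-dried rehydrated polysomal RNA, with the sign turned, and its calls for the treatment difference in total RNA (0.96) and for polysomal minus total RNA (-1.25 and -1.46) were lost. There ELIPb was 3.40 in slow-dried total RNA (call lost) and 3.40 in rapid-dried rehydrated total RNA (call gained). Its rapid-dried rehydrated polysomal value turned to 0.56, its treatment difference in total RNA was 0.0016 and its polysomal minus total value after slow drying was -1.94 (both calls lost). Slow-dried polysomal minus rapid-dried rehydrated total RNA turned to -1.94, and the treatment gap of ELIPb minus ELIPA turned to -0.61. Leaving out flagged spots, which removes all 3 ELIPA spots on rapid-dried rehydrated polysomal replicate 1, lost ELIPA for the treatment difference in total RNA (0.84) and for polysomal minus total RNA after rehydration (-0.66), and the median of the spots lost ELIPb for the former (1.84). Using background means, chosen after seeing the data, lost ELIPA there (0.71) and for polysomal minus total RNA (-0.81 and -0.80). Fitting 1 RNA fraction alone changed no value but the errors and the calls, and the polysomal fit used an error pooled over clones. ELIPA lost rapid-dried rehydrated total RNA (0.61) and the treatment difference in total RNA (0.85), while the polysomal treatment difference passed for ELIPA (0.71) and ELIPb (0.87), as did ELIPb in slow-dried (0.35) and rapid-dried rehydrated polysomal RNA (-0.52). Plain background subtraction and leaving out the dye term changed no direction or call of an ELIP result. A filter for clones above background in at least 1 channel of every array kept both ELIPs through their treated channel, so their results under it support nothing.

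Leaving out single arrays, where a lone array is assumed to vary like the other groups, gave these ranges. ELIPA lay from 1.31 to 1.61 in slow-dried total, 0.38 to 0.85 in rapid-dried rehydrated total, 0.50 to 0.61 in slow-dried polysomal and -0.18 to -0.12 in rapid-dried rehydrated polysomal RNA. Its treatment difference lay from 0.61 to 1.08 in total and 0.66 to 0.76 in polysomal RNA, polysomal minus total RNA from -1.05 to -0.75 after slow drying and -1.0 to -0.53 after rehydration, and slow-dried polysomal minus rapid-dried rehydrated total RNA from -0.29 to 0.18. ELIPb lay from 1.13 to 2.91 in slow-dried total, -0.28 to 0.52 in rapid-dried rehydrated total, 0.015 to 0.68 in slow-dried polysomal and -0.67 to -0.36 in rapid-dried rehydrated polysomal RNA. Its treatment difference lay from 1.01 to 2.79 in total and 0.53 to 1.2 in polysomal RNA, polysomal minus total RNA from -2.56 to -0.79 after slow drying and -1.04 to -0.24 after rehydration, and slow-dried polysomal minus rapid-dried rehydrated total RNA from -0.18 to 0.63. ELIPb minus ELIPA averaged -0.34 to -0.052, its treatment gap lay from 0.20 to 0.75 and its fraction gap from -0.55 to 0.13. The negative end for ELIPb in rapid-dried rehydrated total RNA came without replicate 1 of that comparison, and the positive end of the fraction gap without slow-dried total replicate 2.

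No paired analysis was possible because the replicate numbers were assigned here and coincide with the dye, which is a term of the fit. Over all clones the calls higher and lower in slow-dried total RNA were 249 and 235, against 597 and 25 on the control scale, 382 and 11 on the dye-swap scale and 477 and 19 in the authors' table. In rapid-dried rehydrated polysomal RNA they were 146 and 135, against 580 and 10, 0 and 4, and 342 and 6. The hydrated signal of ELIPb was well above background on 1 of 4 total RNA arrays, which limits its total RNA ratios. That of ELIPA was not well above background on slow-dried replicate 2 and rapid-dried rehydrated replicate 1 in total RNA, which limits its ratios there too.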
